A study of Mus musculus with 16 samples.

Results

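The 8 microRNAs described here are known from blood cells and were followed in small RNA of mature mouse sperm: the erythroid members miR-451a, miR-144-3p and miR-486a-5p, and the leukocyte members miR-142a-3p, miR-150-5p, miR-223-3p, miR-146a-5p and miR-146b-5p. A read was given to a member when it was 20 to 26 nt long and began with the first 20 bases of the mature arm. Of the 8 members, 6 were matched to a mature sequence and measured, among 1621 microRNA features counted by the same rule. miR-486a-5p and miR-150-5p were not analysed here.

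MicroRNAs are short RNAs cut from a hairpin, and their seed, the bases near the 5′ end, pairs with target messages. miR-451a and miR-144 come from a common erythroid transcript, and miR-451a is unusual in that Argonaute 2, and not Dicer, cuts its hairpin. miR-142 is made across blood cell lineages, miR-223 is highest in granulocytes and other myeloid cells, and miR-150 is typical of mature lymphocytes. miR-146a and miR-146b are induced by NF-κB signalling and dampen it by repressing Traf6 and Irak1, and they are also made outside blood, including in epithelia.

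The study compared sperm of Dnmt2-/- and Dnmt2+/+ males on a high-fat diet (HFD, D12492) or a normal diet (ND), with 2 libraries in each of 4 groups: Dnmt2-/- HFD, Dnmt2+/+ HFD, Dnmt2-/- ND and Dnmt2+/+ ND. Dnmt2 (Trdmt1) methylates cytosine in tRNA. The knockout allele (Dnmt2tm1Bes) had been crossed back to C57BL/6NCrl for over 5 generations, C57BL/6NCrl males were bought at 6 weeks of age, and the sources used here give no age at sperm collection. Sperm from the cauda epididymis were taken up in saline at 37 °C and pelleted at 600 g, and the labels name no step that lyses other cells. Nothing in the labels ties the 2 libraries of a group to separate males, so a p-value here speaks of spread among libraries that may be technical. The libraries held 10165031 to 19030258 reads, of which microRNA reads were 1.08% to 7.01%, and 3 reads, the limit that a count of 0 allows, equal 0.158 to 0.295 counts per 1000000 library reads (CPM). Among germ cell microRNAs, miR-881-3p had 270 to 1398 CPM in the 8 libraries, and miR-871-3p and miR-741-3p also had reads in each. Other germ cell microRNAs were near absent in some libraries. miR-34b-5p had 0 to 0.295 CPM. miR-449a-5p had 0.0760 CPM or less in both Dnmt2-/- ND libraries and 0 in Dnmt2+/+ ND 1, against 0.376 to 4.76 CPM elsewhere. The labelled material thus carried some, but not all, of the measured germ cell microRNAs in each library. The deletion itself is not checked by small RNA reads.

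The libraries fell into 3 sets by their substitution errors. G-to-T changes at base 29 ran at 411 to 536 per 10000 reads in set A (both Dnmt2-/- ND libraries and Dnmt2+/+ ND 1) and at 3.95 or less elsewhere. C-to-G changes at base 26 ran at 9.58 to 10.0 per 10000 in set B (Dnmt2-/- HFD 1 and both Dnmt2+/+ HFD libraries) and at 0.959 or less elsewhere. Set C held the rest, Dnmt2-/- HFD 2 and Dnmt2+/+ ND 2, which were low in both changes. They were not alike at every base: C-to-T changes at base 5 ran at 285 and 14.9 per 10000 reads. Set A was all ND and set B all HFD, so set C alone holds both diets, with 1 library each that also differ in genotype. Outside set C, diet and set cannot be told apart.

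The mature sequences, from RefSeq for GRCm38.p6 and written 5′ to 3′ with the seed (bases 2 to 8) in capitals, are shown because every count below rests on them and because the seeds group the members.
miR-451a: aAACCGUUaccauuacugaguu
miR-144-3p: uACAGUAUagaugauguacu
miR-142a-3p: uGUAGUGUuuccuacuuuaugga
miR-223-3p: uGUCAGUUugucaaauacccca
miR-146a-5p: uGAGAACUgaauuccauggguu
miR-146b-5p: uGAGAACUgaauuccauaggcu
miR-146a-5p and miR-146b-5p shared their seed, and the other 4 seeds differed from it and from each other. The Mir144 and Mir451a hairpins lie 99 bases apart on the plus strand of chromosome 11, with miR-144-3p at chr11:78073047-78073066 and miR-451a at chr11:78073186-78073207. On the same chromosome are miR-142a-3p at chr11:87756903-87756925 (plus strand) and miR-146a-5p at chr11:43374435-43374456 (minus strand). miR-223-3p lies at chrX:96242884-96242905 within the gene F630028O10Rik, and miR-146b-5p lies at chr19:46342790-46342811 within Gm36493, both on the plus strand.

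Blood cell microRNAs were a small part of sperm microRNA, and nearly all of their reads were miR-146a-5p and miR-146b-5p. By mean CPM, miR-146a-5p ranked 42 and miR-146b-5p 49 among the 545 features with a read, with 2929 and 2573 reads over the 8 libraries. miR-451a (116 reads) ranked 148, miR-142a-3p (83 reads) ranked 156 and miR-223-3p (51 reads) ranked 181. The miR-146 pair made up 93.3% to 98.0% of the reads of all measured members in a library. In bulk libraries, fewer cells of a type and less RNA per cell cannot be told apart.

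Of the erythroid members, miR-451a was found in every library and miR-144-3p in none. miR-451a had 1.16 and 1.503 CPM in Dnmt2-/- HFD, 0.874 and 2.07 in Dnmt2+/+ HFD, 0.303 and 0.684 in Dnmt2-/- ND, and 0.578 and 2.20 in Dnmt2+/+ ND libraries. The highest and the lowest library were both on ND, so the diets overlapped, and so did the genotypes. miR-144-3p had 0 reads among 103084122, which allows up to 0.0291 CPM over the 8 libraries. Its partner arm miR-144-5p had 6 reads in 3 libraries, 4 of them in Dnmt2+/+ HFD 2.

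Among the leukocyte members, miR-142a-3p was present in all HFD libraries and absent from set A. It had 1.26 and 1.65 CPM in Dnmt2-/- HFD, 2.62 and 0.984 in Dnmt2+/+ HFD, 0 and 0 in Dnmt2-/- ND, and 0 and 0.806 in Dnmt2+/+ ND libraries. All 4 HFD libraries lay above all 4 ND libraries, and the lone ND library with reads belongs to set C. miR-223-3p had 0.388 and 0.451 CPM in Dnmt2-/- HFD, 0.971 and 0.197 in Dnmt2+/+ HFD, 0.152 and 0.304 in Dnmt2-/- ND, and 0.158 and 1.47 in Dnmt2+/+ ND libraries. Its highest library was Dnmt2+/+ ND 2, with 20 of the 51 reads, and the diets overlapped.

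The miR-146 pair was lowest in the 3 libraries of set A. miR-146a-5p had 55.4 and 31.6 CPM in Dnmt2-/- HFD, 81.7 and 49.3 in Dnmt2+/+ HFD, 9.03 and 3.498 in Dnmt2-/- ND, and 2.05 and 28.7 in Dnmt2+/+ ND libraries. All HFD libraries lay above all ND libraries, with 31.6 CPM (Dnmt2-/- HFD 2) and 28.7 CPM (Dnmt2+/+ ND 2), both of set C, nearest to each other. miR-146b-5p had 29.01 and 35.4 CPM in Dnmt2-/- HFD, 46.0 and 31.0 in Dnmt2+/+ HFD, 12.9 and 11.5 in Dnmt2-/- ND, and 12.7 and 33.1 in Dnmt2+/+ ND libraries. Here the diets overlapped, since Dnmt2+/+ ND 2 lay above 2 of the HFD libraries.

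**Figure D1:**
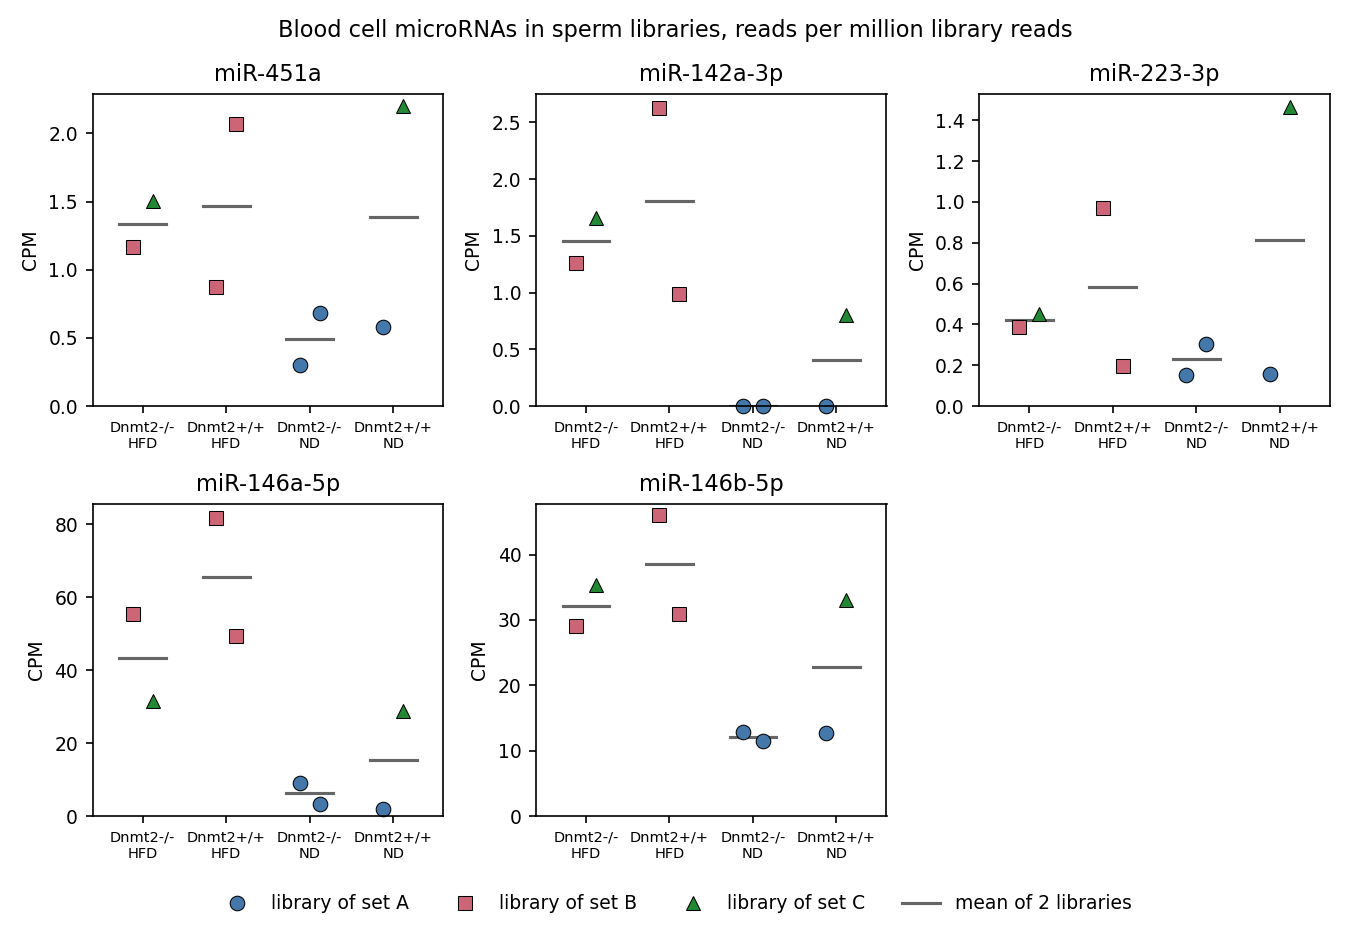
Level of the 5 detected members in each of the 8 libraries (y axis, CPM; x axis, group), with the mean of the 2 libraries of a group as a line and the marker giving the set. The ND library of set C, Dnmt2+/+ ND 2, lies far above the set A libraries for each member, for instance at 28.7 CPM of miR-146a-5p against 2.05 to 9.03 CPM.

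The first comparison asks how HFD sperm differ from ND sperm. miR-146a-5p averaged 54.5 ± 20.8 CPM on HFD and 10.8 ± 12.3 CPM on ND (SD, n = 4 each), and miR-142a-3p averaged 1.63 ± 0.716 CPM on HFD and 0.201 ± 0.403 CPM on ND. Neither passed in the fit over all arms: with both genotypes together, edgeR's quasi-likelihood test gave adjusted p = 0.0903 and 0.0888. The log2 fold change of miR-146a-5p was 2.44 ± 0.81 (SE), against a median of 1.31 over the 187 arms tested. It was 1.14 with TMM scaling, 1.23 with DESeq2, 0.75 with microRNA reads as the library size, 3.89 without Dnmt2+/+ ND 2 and -0.55 with set as a term. That of miR-142a-3p, which had 0 reads in set A, was 4.71 ± 1.46 (SE). It was 4.35 with TMM scaling, 3.32 with DESeq2, 3.88 with microRNA reads as the library size and 1.28 with set as a term. With no filter on low counts both members passed (edgeR adjusted p = 0.00896 for miR-146a-5p and 0.00727 for miR-142a-3p), among 28 of 545 arms called. Without Dnmt2+/+ ND 2 both passed too (edgeR adjusted p = 0.00448 for each), but so did most arms, 147 of 207. Without Dnmt2+/+ ND 1, miR-142a-3p passed (edgeR adjusted p = 0.0391), among 21 of 217 arms. None of the 5 tested members was called, where 14 of 187 arms (7.49%) were, all higher on HFD. Of the 5 members, 2 had an unadjusted edgeR p under 0.05, as did 57 of the 187 arms, and DESeq2 called 1, miR-142a-3p, among 26 of 187 arms.

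The other members were nearer to the median arm or below it. miR-146b-5p averaged 35.4 ± 7.60 CPM on HFD and 17.5 ± 10.4 CPM on ND (SD, n = 4 each), with a log2 fold change of 1.08 ± 0.50 (SE; edgeR adjusted p = 0.174) that was negative under TMM scaling, DESeq2 or microRNA reads as the library size. Without Dnmt2+/+ ND 2 it was among the 147 of 207 arms that passed (edgeR adjusted p = 0.0147). miR-451a had 1.40 ± 0.512 CPM on HFD and 0.941 ± 0.853 CPM on ND, with a log2 fold change of 0.75 ± 0.76 (edgeR adjusted p = 0.416) that was negative under the same 3 scalings and with set as a term (-0.27). miR-223-3p had 0.502 ± 0.331 CPM on HFD and 0.520 ± 0.634 CPM on ND (log2 fold change 0.20 ± 0.94, edgeR adjusted p = 0.850), and its fold change was negative under TMM scaling or DESeq2, without Dnmt2+/+ HFD 1 and without Dnmt2+/+ ND 1, and it was -1.64 with set as a term. In exact two-sided permutation of 4 against 4 libraries, miR-142a-3p and miR-146a-5p reached p = 0.0286, the smallest this design can give, with adjusted p = 0.178 over all 187 arms. All 4 HFD libraries lay above all 4 ND libraries for these 2 members, as for 13.9% of the arms tested.

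Set C joins libraries low in the changes that define sets A and B, and not all of their other error rates matched. Within it, the HFD library was close to the ND library for the miR-146 pair, higher for miR-142a-3p, and lower for miR-451a and miR-223-3p. Dnmt2-/- HFD 2 and Dnmt2+/+ ND 2 had 31.6 and 28.7 CPM of miR-146a-5p, and 35.4 and 33.1 CPM of miR-146b-5p. For miR-142a-3p they had 1.65 and 0.806 CPM, or 22 and 11 reads. For miR-451a they had 1.503 and 2.20 CPM, and for miR-223-3p 0.451 and 1.47 CPM. These are single libraries that also differ in genotype, with no replicate check.

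In Dnmt2-/- sperm alone, all ND libraries were of set A. miR-146a-5p averaged 43.5 ± 16.9 CPM on HFD and 6.26 ± 3.91 CPM on ND (SD, n = 2 each), with a log2 fold change of 2.79 ± 1.17 (SE; edgeR adjusted p = 0.166), against a median of 2.05 over all arms. With set as a term, the log2 fold change of miR-146a-5p was -1.47. Without Dnmt2+/+ ND 1 or ND 2, which are in neither group of this comparison but in the same fit, it passed (edgeR adjusted p = 0.0211 and 0.0213), among 68 of 217 and 68 of 207 arms. miR-142a-3p averaged 1.46 CPM on HFD and had 0 reads on ND (log2 fold change 7.24 ± 2.43, edgeR adjusted p = 0.147). By total reads, the HFD mean was 12.8 times the 0.114 CPM that 3 reads over the ND group would give. That value leaves out the counting error of the HFD mean. Exact reads of the whole Mir142 hairpin were found in both ND libraries, at 1.14 and 0.456 CPM, against 4.85 and 9.32 CPM on HFD. The log2 fold change of miR-146b-5p was 1.40 ± 0.71 (edgeR adjusted p = 0.203) and turned negative under TMM, DESeq2 or microRNA reads as the library size. No member was called, where 1 of 187 arms (0.535%) was. An unadjusted edgeR p under 0.05 was given to 2 members and 53 arms, and DESeq2 called 0 members and 3 arms.

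In Dnmt2+/+ sperm, Dnmt2+/+ ND 1 and Dnmt2+/+ ND 2 lay far apart. miR-146a-5p had 81.7 and 49.3 CPM on HFD and 2.05 and 28.7 CPM on ND, a log2 fold change of 2.09 ± 1.13 (SE; edgeR adjusted p = 0.608) against a median of 0.61 over all arms. Without Dnmt2+/+ ND 2, that fold change was 4.99 (edgeR adjusted p = 0.0292, among 72 of 207 arms called), and without Dnmt2+/+ ND 1 it was 1.19 (edgeR adjusted p = 0.762). Either leaves 1 ND library, which is assumed to vary like the other groups. With set as a term the fold change was 0.38. miR-146b-5p had a log2 fold change of 0.75 ± 0.70 (edgeR adjusted p = 0.836), which was negative under the same 3 scalings. No member was called, where 0.535% of 187 arms were; 0 members and 18 arms had an unadjusted edgeR p under 0.05, and DESeq2 called 0 members and 18 arms.

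Set against microRNA reads alone, the separation of the diets was gone. Per 1000000 microRNA reads, miR-146a-5p stood at 937 and 1211 in Dnmt2-/- HFD, 1165 and 926 in Dnmt2+/+ HFD, 837 and 263 in Dnmt2-/- ND, and 74.3 and 1366 in Dnmt2+/+ ND libraries. Dnmt2+/+ ND 2 was now the highest of the 8. miR-146b-5p stood at 490 and 1358 in Dnmt2-/- HFD, 656 and 582 in Dnmt2+/+ HFD, 1196 and 862 in Dnmt2-/- ND, and 459 and 1575 in Dnmt2+/+ ND libraries. On this scale 0 of the 5 members had all HFD libraries above all ND libraries and 0 had them all below, where 5.35% and 4.28% of arms did.

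**Figure D2:**
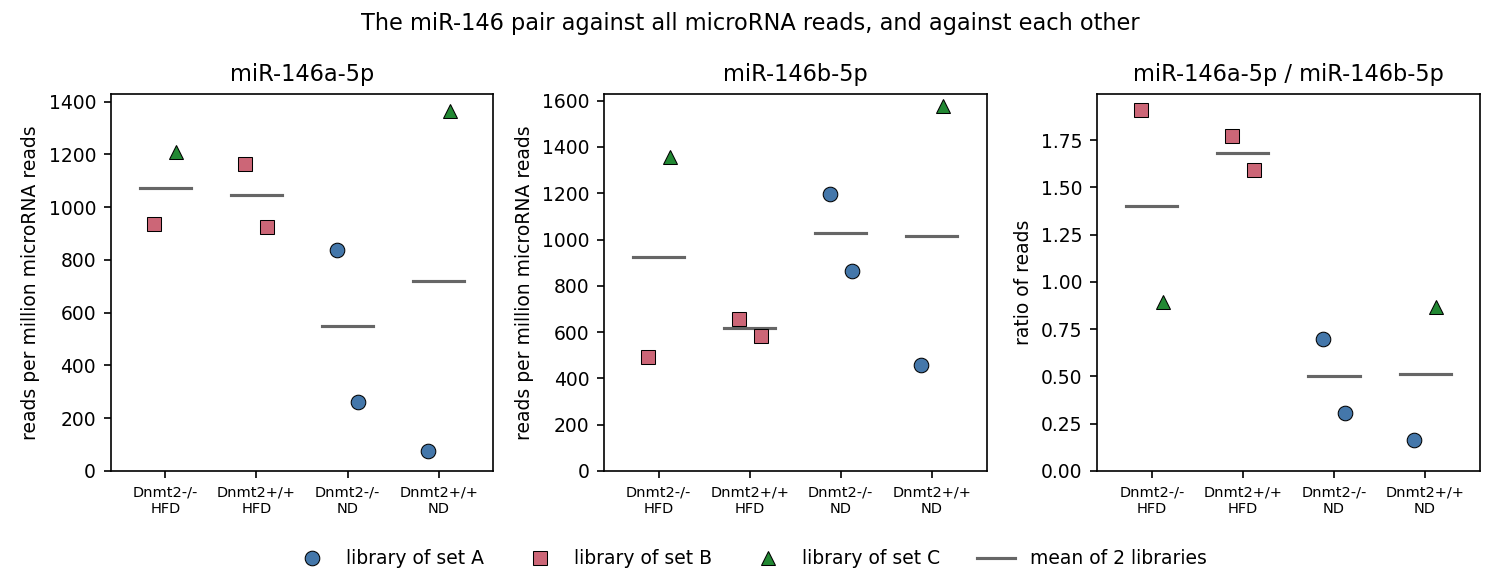
Reads of miR-146a-5p and miR-146b-5p per 1000000 microRNA reads (left and middle panels) and the ratio of miR-146a-5p to miR-146b-5p reads (right panel) in each library by group, with group means as lines and sets as markers. Dnmt2+/+ ND 2 is the highest library on the microRNA scale (1366 and 1575), and the ratio runs from 0.162 in set A to 1.91 in set B.

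The balance within the miR-146 pair does not depend on how libraries are scaled. The ratio of miR-146a-5p to miR-146b-5p was 1.91 and 0.892 in Dnmt2-/- HFD, 1.77 and 1.59 in Dnmt2+/+ HFD, 0.70 and 0.305 in Dnmt2-/- ND, and 0.162 and 0.867 in Dnmt2+/+ ND libraries. It was 0.162 to 0.70 in set A, 1.59 to 1.91 in set B, and 0.892 and 0.867 in set C. In set C, miR-146a-5p was 47.1% of the pair's reads in Dnmt2-/- HFD 2 (95% Wilson interval 43.9% to 50.4%) and 46.4% in Dnmt2+/+ ND 2 (43.1% to 49.8%), so no difference was detectable at this depth. The part that set played was not tested for the ratio.

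The second comparison asks how loss of Dnmt2 bears on these microRNAs. Over both diets, miR-146a-5p averaged 24.9 ± 23.7 CPM in Dnmt2-/- and 40.4 ± 33.6 CPM in Dnmt2+/+ libraries (SD, n = 4 each), with a log2 fold change of -0.94 ± 0.78 (SE; edgeR adjusted p = 0.379) against a median of -1.06 over all arms. miR-146b-5p averaged 22.2 ± 11.9 CPM in Dnmt2-/- and 30.7 ± 13.7 CPM in Dnmt2+/+ libraries, with a log2 fold change of -0.58 ± 0.50 (edgeR adjusted p = 0.387). miR-451a had a log2 fold change of -0.80 ± 0.76 and miR-223-3p of -1.12 ± 0.97 (edgeR adjusted p = 0.423 and 0.388). All 4 of these values were positive under TMM scaling and under DESeq2, and that of miR-146b-5p also with microRNA reads as the library size. Without Dnmt2+/+ ND 2, the value was 0.51 for miR-146a-5p and 0.0205 for miR-223-3p. miR-142a-3p averaged 0.729 ± 0.857 CPM in Dnmt2-/- and 1.103 ± 1.0996 CPM in Dnmt2+/+ libraries, with a log2 fold change of -2.83 (edgeR adjusted p = 0.279). Without Dnmt2+/+ ND 1 it passed at -3.30 (edgeR adjusted p = 0.0353), among 70 of 217 arms, and without Dnmt2+/+ ND 2 the fold change was -0.15. No member was called, where 0 of 187 arms (0%) were; 0 members and 14 arms had an unadjusted edgeR p under 0.05, and DESeq2 called 0 arms.

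Within a diet, genotype compares libraries of like or unlike sets. On HFD, the log2 fold change of miR-146a-5p in Dnmt2-/- over Dnmt2+/+ sperm was -0.59 ± 1.09 and that of miR-146b-5p -0.26 ± 0.70 (SE; edgeR adjusted p = 0.971 for each). On ND they were -1.29 ± 1.11 and -0.91 ± 0.70 (edgeR adjusted p = 0.380 and 0.364), and both pairs of values were positive under TMM scaling. Under DESeq2 all but that of miR-146a-5p on HFD were positive, and with microRNA reads as the library size all but that of miR-146a-5p on ND. Without Dnmt2+/+ ND 2 the ND value of miR-146a-5p was 1.61, without Dnmt2+/+ ND 1 it was -2.20 and passed among 84 of 217 arms (edgeR adjusted p = 0.0423; the 1 library left is assumed to vary like the other groups), and without Dnmt2+/+ HFD 1 the HFD value of miR-146b-5p was 0.0557. In set A, the 2 Dnmt2-/- ND libraries had 9.03 and 3.498 CPM of miR-146a-5p and the Dnmt2+/+ ND library 2.05 CPM. In set B, the Dnmt2-/- HFD library had 55.4 CPM and the Dnmt2+/+ HFD libraries 81.7 and 49.3 CPM. On either diet no member and none of the 187 arms (0%) was called by edgeR or DESeq2; arms with an unadjusted edgeR p under 0.05 numbered 0 on HFD and 26 on ND, with 0 members among them.

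The difference between the 2 diet effects, tested as an interaction, was 0.70 ± 1.54 on the log2 scale for miR-146a-5p and 0.65 ± 0.99 for miR-146b-5p (SE; edgeR adjusted p = 0.807 and 0.789), and both were negative under TMM scaling, DESeq2 or set as a term, and without Dnmt2+/+ ND 2. For miR-142a-3p the difference was 5.06 ± 2.85 (SE, edgeR adjusted p = 0.789), with 0 reads in Dnmt2-/- ND. No member was called, where 0% of 187 arms were. An unadjusted edgeR p under 0.05 was given to 2 arms and 0 members, and DESeq2 called 0.

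Summed by lineage, the erythroid members, which here are miR-451a alone, had 1.40 ± 0.512 CPM on HFD and 0.941 ± 0.853 CPM on ND (SD, n = 4 each). The leukocyte members summed to 92.0 ± 27.2 CPM on HFD and 29.1 ± 23.6 CPM on ND. By genotype, the erythroid sum was 0.914 ± 0.528 CPM in Dnmt2-/- and 1.43 ± 0.822 CPM in Dnmt2+/+ libraries. The leukocyte sum was 48.1 ± 34.8 CPM in Dnmt2-/- and 72.9 ± 48.1 CPM in Dnmt2+/+ libraries. These sums carry no test. Per microRNA read, the log2 ratio of mean sums turned to 0.0623 for the leukocyte sum by genotype and to -0.67 for the erythroid sum by diet. The leukocyte sum was almost wholly the miR-146 pair. Without that pair, miR-142a-3p and miR-223-3p summed to 1.65 and 2.10 CPM in Dnmt2-/- HFD, 3.59 and 1.18 in Dnmt2+/+ HFD, 0.152 and 0.304 in Dnmt2-/- ND, and 0.158 and 2.27 in Dnmt2+/+ ND libraries. That sum ran from 0.273 to 4.11 times the reads of miR-451a, and was below them in all set A libraries and in Dnmt2+/+ HFD 2. With miR-486a-5p and miR-150-5p not analysed, these sums do not give the level of a lineage.

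The form of the reads was a second readout that diet and genotype comparisons did not use. The bases that part the miR-146 pair, G18A and U21C (miR-146a-5p base first, counted from the 5′ end, miR-146b-5p base last), are in capitals here.
miR-146a-5p: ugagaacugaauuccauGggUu
miR-146b-5p: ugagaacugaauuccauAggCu
Base 18 lies inside the matched part of the read and base 21 outside it, so base 21 checks the match. Among reads long enough to hold it, it was the arm's own base in 93.2% of 2840 miR-146a-5p reads (T) and in 99.5% of 2571 miR-146b-5p reads (C).

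miR-146b-5p was read as a longer molecule than miR-146a-5p, though both are annotated at 22 nt. miR-146b-5p averaged 23.5 ± 0.130 nt and miR-146a-5p 22.0 ± 0.284 nt (SD over 8 libraries), a difference of 1.52 ± 0.326 nt with miR-146b-5p longer in 8 of 8 libraries (two-sided exact permutation within libraries, p = 0.00781, the only such test and chosen after the values were seen). Reads of 23 nt or longer were 85.0% to 96.3% of miR-146b-5p reads in a library and 19.3% to 43.5% of miR-146a-5p reads. The widest 95% Wilson interval behind these shares was 30.2% to 57.8%, for the 46 miR-146a-5p reads of Dnmt2-/- ND 2. The commonest miR-146b-5p read (1139 reads) ended 2 hairpin bases beyond the annotated arm, and the commonest miR-146a-5p read (1050 reads) ended at the annotated base.
miR-146b-5p, 24 nt: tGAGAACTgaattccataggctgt
miR-146a-5p, 22 nt: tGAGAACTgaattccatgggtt

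The 3′ ends of the low members also differed. Of the 116 miR-451a reads, 65.5% were 21 nt and 12.1% were 26 nt long, the longest allowed, and 87.1% followed the hairpin to their last base. Of the 51 miR-223-3p reads, 41.2% followed the hairpin and 43.1% ended in added T. The hairpin was followed to the end by 71.1% of miR-142a-3p, 68.7% of miR-146a-5p and 79.3% of miR-146b-5p reads. An added base that equals the next hairpin base counts as following it.

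**Figure D3:**
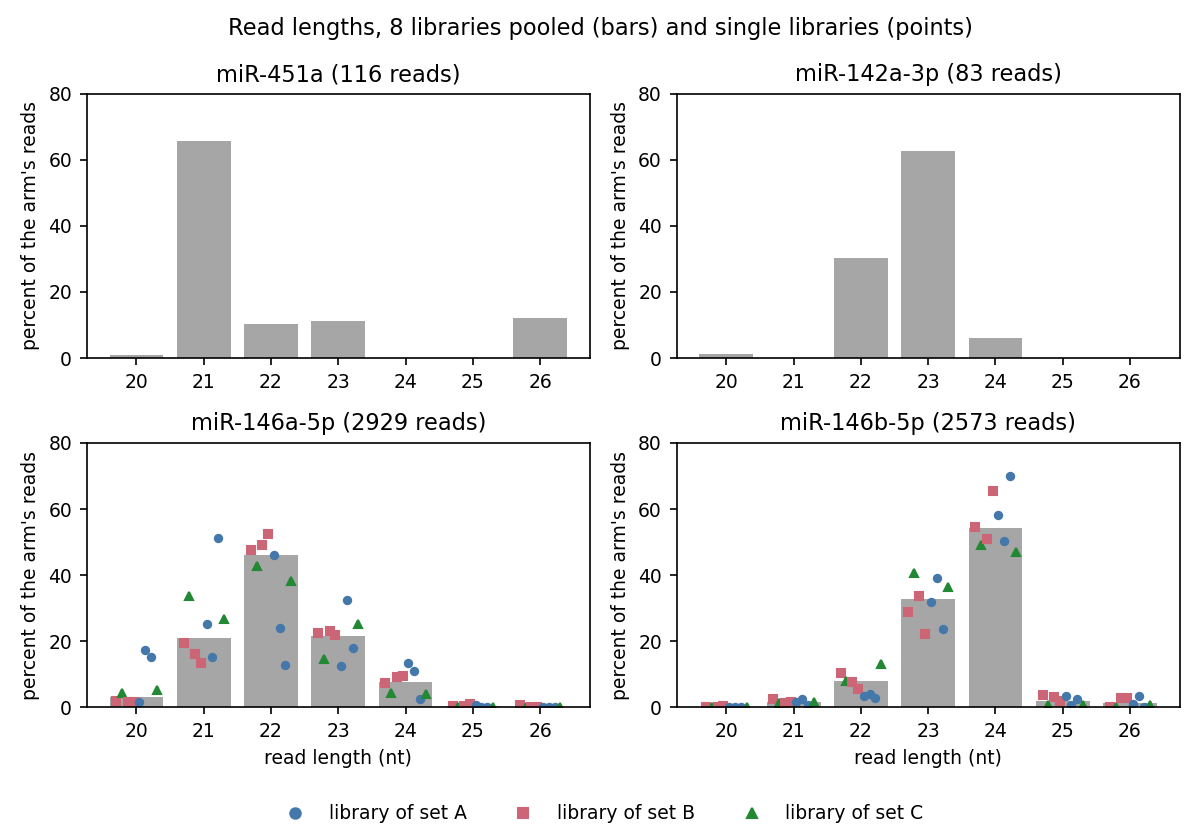
Read length (x axis, nt) against the percent of an arm's reads (y axis) for 4 members, with all libraries pooled as bars and, for the miR-146 pair, single libraries as points marked by set. miR-146b-5p peaks at 24 nt (54.4% of reads) and miR-146a-5p at 22 nt (46.0%).

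Many reads of the Mir142 hairpin began away from the annotated starts, most of those on the 5′ arm and nearly as many as at the annotated base on the 3′ arm that miR-142a-3p counts. Of 278 reads on the 5′ arm, 256 (92.1%; 95% Wilson interval 88.3% to 94.7%) began 2 bases upstream of the annotated start, and 19 at it. Of 114 reads on the 3′ arm, 59 began at the annotated base and 51 (44.7%; 35.9% to 53.9%) began 1 base later. Such a shift moves bases 2 to 8, shown in capitals for the commonest read of each start.
5′ arm, 2 bases upstream, 198 reads: cCCATAAAgtagaaagcact
5′ arm, annotated start, 15 reads: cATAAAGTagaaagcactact
3′ arm, annotated start, 34 reads: tGTAGTGTttcctactttatgga
3′ arm, 1 base later, 37 reads: gTAGTGTTtcctactttatgga
Mir142b, annotated on the other strand, overlaps this hairpin.

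Counted over the whole hairpin, Mir142 was present in all 8 libraries, the 3 without miR-142a-3p included. Exact Mir142 reads of 18 to 44 nt came to 4.85 and 9.32 CPM in Dnmt2-/- HFD, 7.67 and 2.16 in Dnmt2+/+ HFD, 1.14 and 0.456 in Dnmt2-/- ND, and 0.473 and 6.37 in Dnmt2+/+ ND libraries. The diets, which did not overlap for miR-142a-3p, overlapped for the hairpin, since Dnmt2+/+ ND 2 lay above 2 HFD libraries. At the other hairpins the partner arms were mixed. miR-223-5p had 97 reads, against 51 of miR-223-3p, while miR-146a-3p and miR-146b-3p had 0 in all libraries. miR-150-3p, from the hairpin of a lymphocyte member, had 7 reads, 6 of them in Dnmt2-/- HFD 2.

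**Figure D4:**
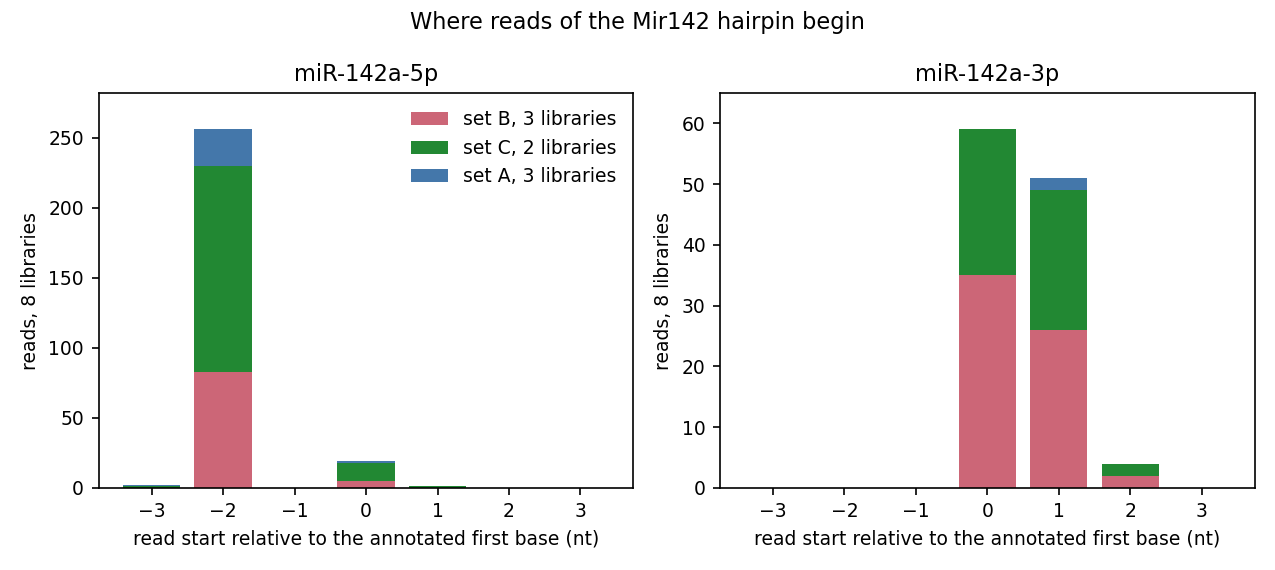
Number of exact Mir142 hairpin reads (y axis, 8 libraries, stacked by set) by the distance of their first base from the annotated start (x axis, nt; negative is upstream) for the 5′ arm (left) and the 3′ arm (right). The tallest 5′ bar is at -2 (256 reads), and the 3′ reads divide between the annotated start (59 reads) and 1 base later (51 reads).

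Lists of microRNAs of other cells differed in how they lay across the libraries. The 6 further blood cell microRNAs on a list, among them miR-16-5p (abundant in erythroid cells), miR-155-5p (induced in activated leukocytes) and miR-342-3p, summed to 10.8 to 39.8 CPM on HFD and 1.84 to 27.7 CPM on ND. Of these 6, 4 were tested and 0 called by edgeR, with a median log2 fold change of 1.91 against 1.31 over all arms. Epithelial microRNAs (the miR-200 family and miR-205-5p, 6 of 6 detected) summed to 612 to 4012 CPM on HFD and 193 to 1935 CPM on ND, with 0 of 6 called and a median of 1.52. The endothelial arm miR-126a-3p had 7.82 to 19.2 CPM on HFD and 1.37 to 14.2 CPM on ND. The neuronal arm miR-9-5p had 15.7 to 22.3 CPM on HFD and 3.26 to 20.7 CPM on ND. In these 4 lists the set A libraries were the lowest 3. The germ cell list (5 of 6 measured) had 309 to 779 CPM on HFD and 331 to 1501 CPM on ND, with its highest library in set A. The liver list (2 of 3 measured) had 6.40 to 11.8 CPM on HFD and 16.2 to 26.8 CPM on ND, so every HFD library was below every ND library. Of the 187 arms tested, 1 (0.535%) had all HFD libraries lower, and that arm was miR-192-5p of this list. Most of the sum was miR-192-5p, with 5.92 to 10.7 CPM on HFD and 15.7 to 26.2 CPM on ND. miR-194-5p overlapped, with 0.485 to 2.85 CPM on HFD and 0.531 to 3.44 CPM on ND, and 0 of the 2 were called. The smooth muscle list was not analysed here. In striated muscle, where miR-206-3p alone was measured, it had 64.7 to 75.3 CPM in set B and 0.0759 to 0.676 CPM in the other sets. edgeR called it higher on HFD over both genotypes (log2 fold change 8.45), among 14 of 187 arms. With set as a term 0 arms were called. The part of other cell types in the blood members' values was not tested.

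**Figure D5:**
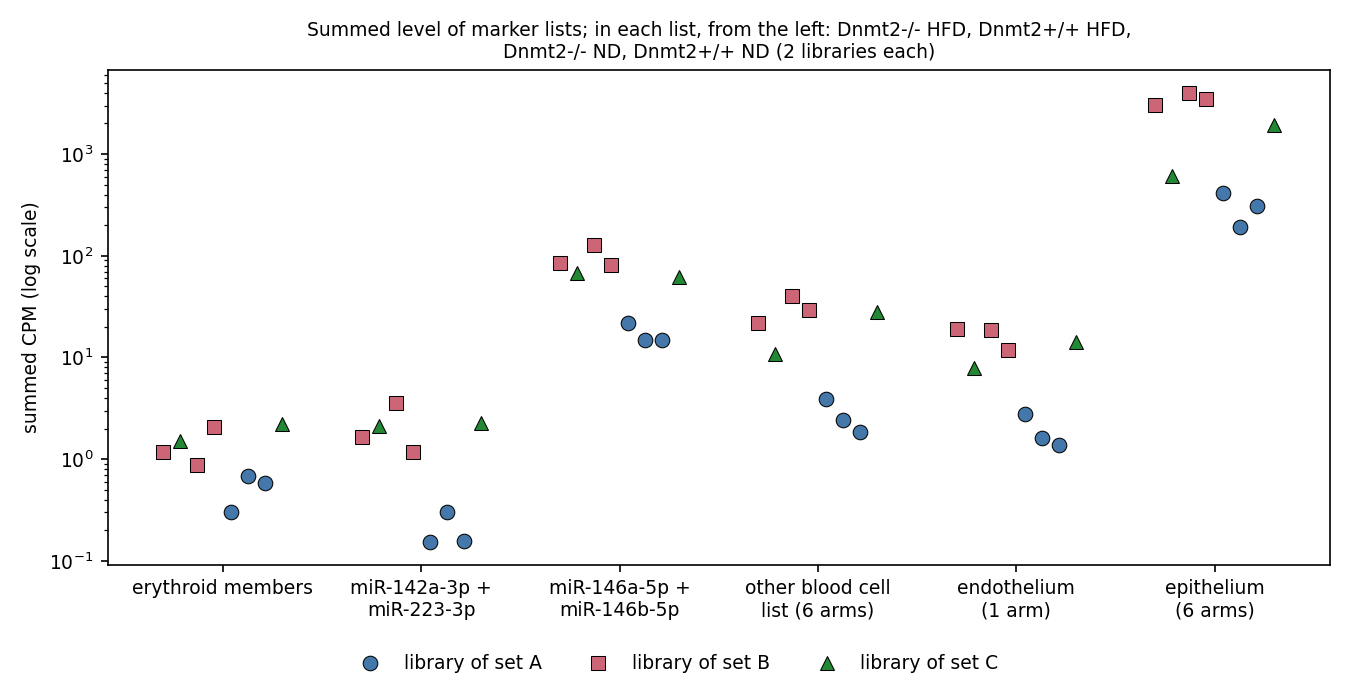
Summed CPM (log y axis) of the erythroid members, the leukocyte members in 2 parts, and 3 further lists (x axis), with 8 libraries per list marked by set. The set A libraries are the lowest 3 in each list, from the miR-142a-3p and miR-223-3p sum (0.152 to 0.304 CPM) to the epithelial list (193 to 417 CPM).

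Among 79 other arms averaging at least 10 CPM, the patterns most like the leukocyte sum over the 8 libraries, by Pearson r of log2(CPM + 1), were those of miR-24-3p (0.97), miR-26a-5p (0.96), miR-26b-5p (0.96), miR-423-3p (0.96) and miR-125b-5p (0.96). For the erythroid sum they were miR-30e-3p (0.85), miR-23a-3p (0.83), miR-743b-3p (0.83), miR-27b-3p (0.82) and miR-92a-3p (0.82). These r values are descriptions, as the libraries share sets and scaling by total reads.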

How the data were processed

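Small RNA of 8 sperm libraries was analysed. The 8 deposited files of 3T3 cells were not used here. Trizol extraction and the TruSeq small RNA kit are given per the labels' protocols. The deposited values are counts: each file lists distinct reads with their length and number. Adapter trimming: not given in the sources used here. Per the submitters' processing notes, the builds were mm10 and GRCm38.

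Reads were matched to 1738 mature arms of the RefSeq table (GRCm38.p6), leaving out 52 arms under 20 bases, and arms that share their first 20 bases were 1 feature. CPM are counts per 1000000 reads of a library, all reads included. Since PCR copies cannot be told from separate molecules without identifiers, limits and intervals cover counting error alone. All features kept by filterByExpr (187) were tested in 1 fit of the 4 groups with edgeR 4.0.16 (R 4.3.3; quasi-likelihood, library size of all reads, no further factor), with Benjamini-Hochberg adjusted p under 0.05 called. The edgeR step was tested on simulated counts with no difference between sets, so that test does not speak of the sets. Pass limits were set for a simulation with a fixed spread, not for the spread of these data. DESeq2 1.42.0, other scalings, filters, match rules and left-out libraries were alternatives. Exact permutations used scipy 1.17.1, and figures matplotlib 3.10.9.

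The text names all members, their partner arms, the cell type lists by sums, and the 5 arms most like each sum. Members and lists were chosen with earlier results of these data known. Sets were defined from substitution rates in abundant reads. Each library was counted as 1 sample. Replicates of a group differed beyond counting noise, most in the groups split across sets. Chi-square per arm was 1299 in Dnmt2-/- HFD and 1022 in Dnmt2+/+ ND, against 180 in Dnmt2+/+ HFD and 94.0 in Dnmt2-/- ND. Such spread does not show that the libraries come from separate males.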

Additional observations from a re-analysis of the deposited data

Results flagged for a closer look

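Dnmt2+/+ ND 2 stood far above the other 3 ND libraries in 4 of 7 values looked at across the ND libraries (Dixon's test for 4 values), and none of 7 across the HFD libraries had a library so far from the rest. Chance gives about 1 in 20. Its values were 0.806 CPM of miR-142a-3p (0 in the others), 1.47 CPM of miR-223-3p (0.152 to 0.304 in the others), 33.1 CPM of miR-146b-5p (11.5 to 12.9 in the others), and 64.1 CPM for the leukocyte sum (14.9 to 22.1 in the others). The gap to the nearest library was 0.854 to 1 of the group's whole range. The 4 values are not independent, since 3 of them enter the sum. This library is the ND library of set C, and the other 3 are set A.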

How the results depend on the processing

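No arm was called for genotype on HFD, on ND or over both diets, or for the interaction, under any alternative that kept all 8 libraries. For diet in Dnmt2-/- sperm, in Dnmt2+/+ sperm and over both genotypes, the called arms (1, 1 and 14) became 0, 0 and 6 with TMM scaling, 0, 3 and 9 with microRNA reads as the library size, 20, 13 and 28 with no filter, 3, 18 and 26 with DESeq2, and 0, 0 and 0 with set as a term. Leaving out 1 library gave 0 to 68, 0 to 72 and 1 to 147 for diet, 0 to 84 for genotype on ND, 0 to 70 over both diets, and 0 to 0 on HFD and for the interaction. The highest diet counts (68, 72 and 147) came without Dnmt2+/+ ND 2 (68 also without Dnmt2+/+ ND 1), and the genotype counts of 84 and 70 without Dnmt2+/+ ND 1. Replicate numbers did not pair the libraries (r between -0.52 and 0.40 for same-numbered libraries of 2 groups), and with a replicate block 1, 1 and 10 arms were called for diet and 0 for genotype and interaction. The median log2 fold change of all arms for diet over both genotypes was 1.31, and -0.08 with TMM, 0.00329 with DESeq2 and -0.37 with microRNA reads as the library size. Of 20 fold changes of members, 338 alternative values held 273 with the same sign and side of the threshold, 12 that now passed and 53 of the other sign. With TMM, diet turned to -0.45 (miR-146b-5p, Dnmt2-/-), -0.43 (Dnmt2+/+) and -0.44 (both), and over both genotypes to -1.13 for miR-223-3p and -0.63 for miR-451a. Genotype turned to 0.0937 (miR-146a-5p, HFD), 0.62 (miR-146b-5p, HFD), 0.86 and 0.63 (miR-146a-5p and miR-146b-5p, ND), and over both diets to 0.47, 0.62, 0.26 and 0.44 for miR-146a-5p, miR-146b-5p, miR-223-3p and miR-451a, with interactions of -0.76 and -0.0132 for the miR-146 pair. With DESeq2, diet turned to -0.36, -0.35 and -0.36 for miR-146b-5p (Dnmt2-/-, Dnmt2+/+, both), -1.05 for miR-223-3p and -0.57 for miR-451a. Genotype turned to 0.46 (miR-146b-5p, HFD), 0.66 and 0.47 (the pair, ND), and 0.32, 0.47, 0.13 and 0.29 over both diets (order as above), with interactions of -0.68 and -0.0116. With microRNA reads as the library size, diet turned to -0.16, -0.71 and -0.44 for miR-146b-5p and -0.67 for miR-451a, and genotype to 0.0386 (miR-146a-5p, HFD), and for miR-146b-5p to 0.58 (HFD), 0.0177 (ND) and 0.30 (both diets). With set as a term, diet turned to -1.47 (Dnmt2-/-) and -0.55 (both) for miR-146a-5p, -1.64 for miR-223-3p and -0.27 for miR-451a, genotype of miR-146a-5p to 1.61 (ND) and 0.68 (both diets), and the interactions to -1.85 and -0.35. That term takes the set differences from Dnmt2-/- HFD (sets B and C) and Dnmt2+/+ ND (sets A and C). Each of these groups has 1 library per set, so the values with set as a term rest on single libraries. Leaving out 1 library, diet over both genotypes ran from -0.56 to 1.34 for miR-223-3p, genotype from -0.52 to 0.0557 for miR-146b-5p on HFD, from -2.20 to 1.61 for miR-146a-5p on ND, from -1.39 to 0.51 and -1.55 to 0.0205 for miR-146a-5p and miR-223-3p over both diets, and the interaction from -2.20 to 1.60 and -0.20 to 1.18 for the pair. Without Dnmt2+/+ ND 2, diet over both genotypes passed for miR-146a-5p and miR-142a-3p (edgeR adjusted p = 0.00448 each) and miR-146b-5p (0.0147). The log2 ratio of mean sums, HFD over ND, was 0.58 (erythroid) and 1.66 (leukocyte), and -0.67 and 0.15 per microRNA read. Other match rules, the hairpin counts and the sum without the miR-146 pair (the last 2 chosen after seeing the data) moved these by less than the spread between libraries. The causes were not tested. The counts of miR-451a, miR-142a-3p and miR-223-3p limit what can be seen of them.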
